A study of Mus musculus with 10 samples.

Results

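Genes of the Wnt pathway that are known from intestinal stem cells, Lgr5, Ascl2, Axin2, Rnf43, Znrf3, Sox9, Tnfrsf19, Lgr4, Fzd7 and Lrp6, were followed through 5 sorted populations of mouse small-intestine crypt cells. They were taken by name, 10 of the 35006 gene names in the count files, and all 10 passed the filter on low counts that left 13706 genes to be tested. The cells came from C57BL6/J mice that carry the EF1a-OSCAR reporter at Rosa26, which makes mCherry and the Venus-based sensor VeN90 as separate proteins from 1 mRNA. The ratio of VeN90 to mCherry fluorescence rises where the activity of CDK9, the kinase of transcription elongation, is low. The stop cassette in front of the reporter had been removed in the germline with Vasa-Cre, so every cell of every group carried the reporter under the EF1a promoter, and no group lacked it. Live EpCAM+ crypt cells were sorted by reporter ratio and reporter level into P1 (OSCARlow, EF1alow), P2 (OSCARhigh, EF1alow), P3 (OSCARlow, EF1ahigh), P4 (OSCARmed, EF1alow) and P5 (OSCARmed, EF1ahigh). From 10000 cells of each population, poly-A RNA was sequenced in 2 replicates, which gave 10 libraries. The age of the mice, and whether libraries with the same replicate number came from the same animal, are not given in the sources used here, so p-values measure the spread between these libraries only.

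The label of the libraries called P2 goes against the study's account of that gate. The study's text places the markers of secretory cells in its P3 gate, whereas in the count files these markers were highest in the libraries labelled P2. No library was renamed. P2 and P3 mean the libraries with those labels throughout, also where the word "labelled" is left out. The summed level of the 7 Paneth cell markers found in the files was 399239 to 562692 CPM (counts scaled to a common library size with TMM factors) in the libraries labelled P2, 19618 to 62922 in P1, 1803 to 3401 in those labelled P3, and 502 to 10743 in P4 and P5. The 7 goblet, 9 enteroendocrine and 8 tuft cell markers were also highest in the libraries labelled P2, and there only Il25 of the tuft list stood at 0, in 1 library. A list of 7 other stem cell markers summed to 4333 to 7202 CPM in P4 and P5, 1171 to 1727 in the libraries labelled P2, 628 to 3149 in those labelled P3 and 683 to 925 in P1. Of the counts in those labelled P3, 59.2% and 36.1% fell on mitochondrially encoded genes, beside 1.04% to 5.19% in the other 8. Each library held 3857612 to 6485823 counts on genes.

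**Figure D1:**
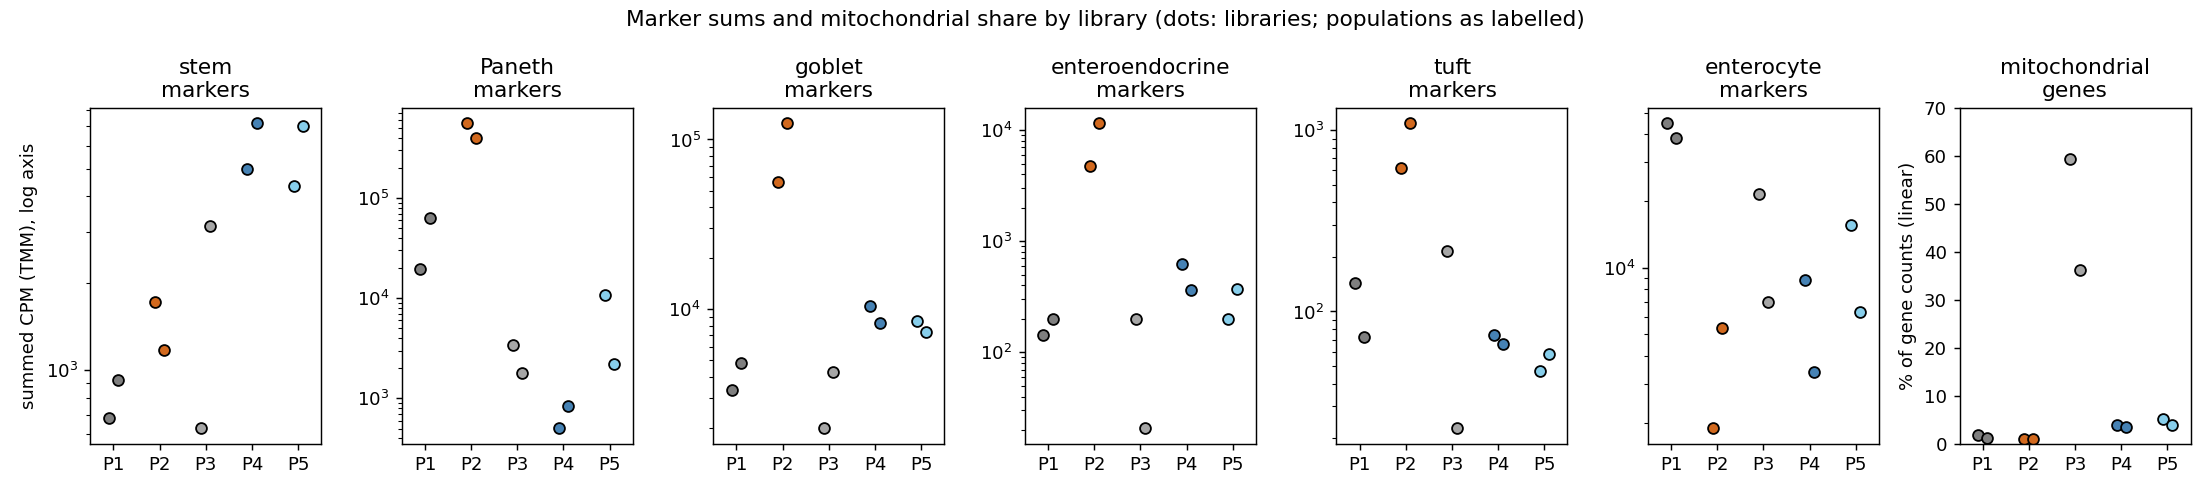
Summed CPM of the markers of 6 cell types (log axis) and the share of counts on mitochondrially encoded genes (linear axis, percent) in each of the 10 libraries, 2 dots per population. The libraries labelled P2 stand highest for the Paneth, goblet, enteroendocrine and tuft lists, P4 and P5 for the stem list, and the libraries labelled P3 for the mitochondrial share, at 59.2% and 36.1%.

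Wnt signalling keeps crypt stem cells dividing. Wnt ligands bind a Frizzled receptor such as Fzd7 together with the co-receptor Lrp6, which stabilises β-catenin and switches on target genes through TCF factors. Rnf43 and Znrf3 are membrane ubiquitin ligases that remove Frizzled receptors, and R-spondins, bound by Lgr4 and Lgr5, relieve that brake. Axin2, Ascl2, Sox9, Tnfrsf19, Rnf43, Znrf3 and Lgr5 are themselves Wnt targets, and Ascl2 is the transcription factor most closely tied to stem cell identity. In the small intestine Sox9 is also found in Paneth cells and other secretory cells.

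Lgr5, the marker of crypt base stem cells, had 94.6 and 115 CPM in the P4 libraries and 72.0 and 103.8 CPM in P5. The libraries labelled P2 were close to them, with 80.5 and 81.2 CPM. It had 10.5 and 9.70 CPM in P1 and 4.25 and 9.33 in those labelled P3. The 6 high libraries did not overlap the 4 low ones, and among P4, P5 and the libraries labelled P2 neighbouring populations overlapped. Since Lgr5 was chosen for this pattern, its differences are given as a description, without a test. On the log2 scale it was 3.48 (SE 0.23) higher in the average of P4 and P5 than in the average of P1 and P3, 3.23 (SE 0.25) higher in the libraries labelled P2 than in that average, and 0.25 lower (log2 difference -0.25, SE 0.24) in those labelled P2 than in the average of P4 and P5. These are bulk samples, in which more cells of a type and more RNA of a gene per cell cannot be told apart.

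**Figure D2:**
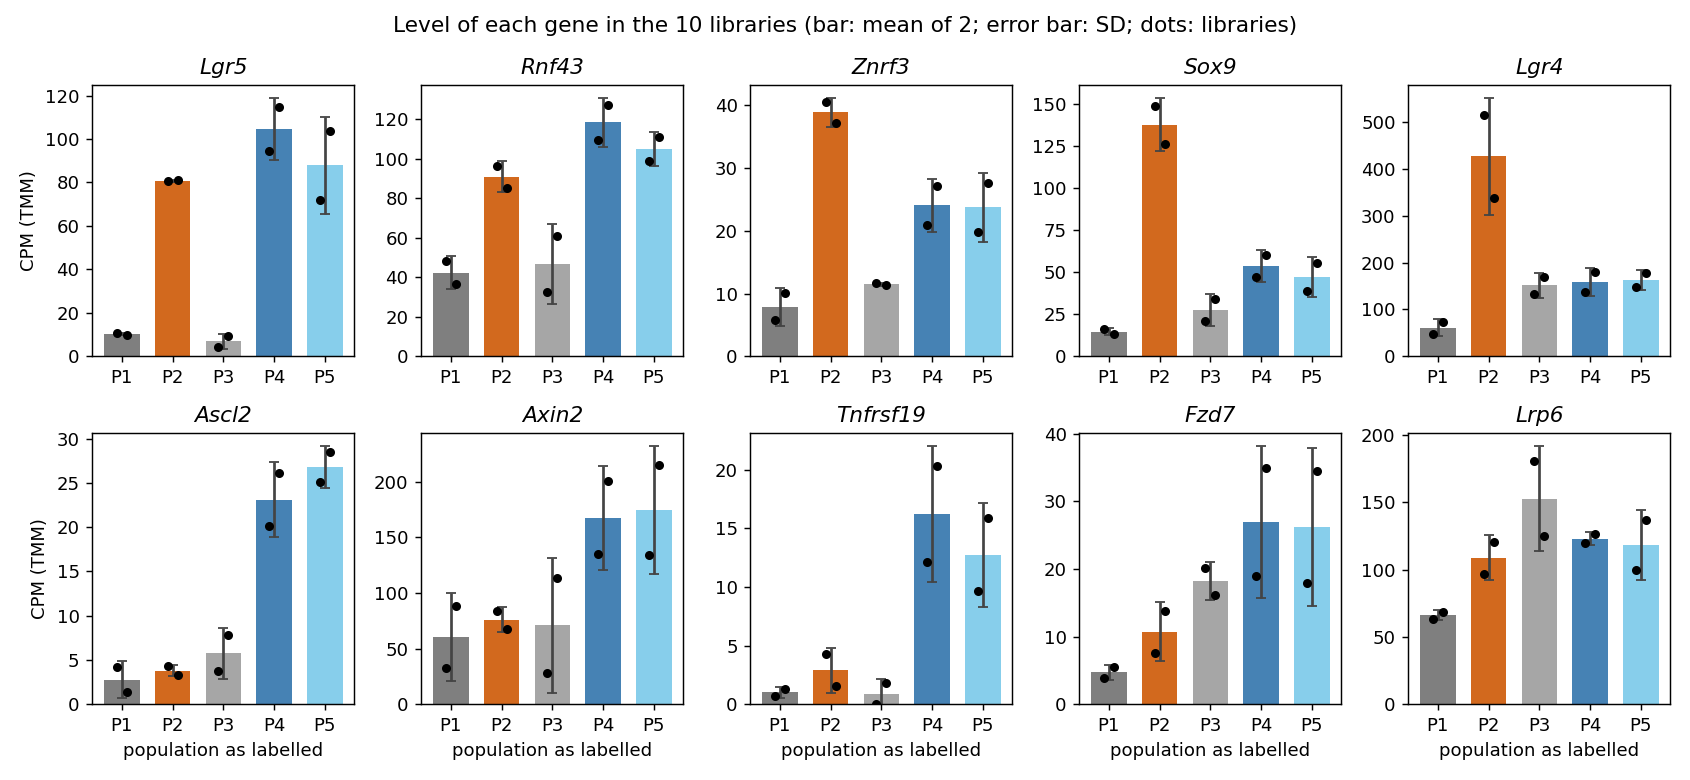
Level of each gene in CPM (linear axes from 0) by population as labelled, with bars for the mean of 2 libraries, error bars for the SD and dots for the libraries. Rnf43, Znrf3 and Sox9 share with Lgr5 that all libraries of P2, P4 and P5 lie above all of P1 and P3. Ascl2, Axin2 and Tnfrsf19 are high in P4 and P5 only, and Lgr4 is highest in P2. In Fzd7 and Lrp6 the libraries labelled P3 reach into the range of P4 and P5.

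Of the 9 other genes, 3 followed Lgr5 in the sense that each of the 6 libraries of P2, P4 and P5 was above each of the 4 libraries of P1 and P3. These were Rnf43, Znrf3 and Sox9, and 5.5% of all genes tested had the same pattern. Ascl2, Axin2 and Tnfrsf19 were high in P4 and P5, and in the libraries labelled P2 they overlapped P1 or those labelled P3. Lgr4 did the opposite: its highest level was in the libraries labelled P2, and P4 and P5 overlapped those labelled P3. Fzd7 and Lrp6 stood apart from both shapes, with their lowest level in P1 and intermediate or high levels in the libraries labelled P3. Leaving out low libraries makes this condition easier to meet, so apart from rescaling the count of 3 could then only stay or rise. The share of all genes that met the easier condition was not taken. The count stayed at 3 without replicate 1 of P1 and without replicate 2 of P1. Without replicate 2 of the libraries labelled P3 it was 5, with Tnfrsf19 and Lgr4 added. Without both libraries labelled P3 it was 7, with Fzd7 and Lrp6 added as well. This last setting was chosen after the data had been seen.

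For the tests, 1 edgeR quasi-likelihood model was fitted to the 5 population means over the 10 libraries, with Benjamini-Hochberg adjustment over all genes tested, and a gene was called at an adjusted p under 0.01. In the average of P4 and P5 against the average of P1 and P3, 5 of the 9 genes rose, Ascl2, Tnfrsf19, Rnf43, Znrf3 and Sox9, and none fell. Over all genes tested, 3.2% were called higher and 6.76% lower in this comparison. The 5 adjusted p-values lay between 0.00424 and 0.00582, close to the threshold. None of the 5 calls was kept when any 1 library of P1, P4 or P5 was left out. Such a fit leaves 1 library in that population, and almost none of all genes tested was called in it. The 5 log2 differences stayed positive in these fits, from 1.16 to 4.02. Against P1 alone all 5 were called, with adjusted p from 0.00094 to 0.0027, and so were Lgr4 and Fzd7. Over all genes tested, 4256 were called in that setting. Against the libraries labelled P3 alone none of the 9 was called, and the 5 had adjusted p from 0.129 to 0.196. Only 4 of all genes tested were called there, so the lack of calls was not particular to the 9. The part that the mitochondrial share of those libraries has in this was not tested. Markers of other cells moved with the comparison as well. The 10 enterocyte markers summed to 38289 to 44981 CPM in P1, 6988 to 21475 in the libraries labelled P3 and 3370 to 15559 in P4 and P5, and 1 of them was called lower in P4 and P5. The 8 immune markers summed to 290 to 1002 CPM in P1, 3.55 to 165 in those labelled P3 and 1.91 to 6.42 in P4 and P5, where Cd3e was at 0 in 3 of the 4 libraries, and 4 of the 7 tested were called lower. The part of these cells in the result was not tested.

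In the libraries labelled P2 against the average of P1 and P3, 4 of the 9 genes rose, Sox9, Lgr4, Znrf3 and Rnf43, and none fell, beside 15.3% of all genes called higher and 12.3% called lower. Directly between the libraries labelled P2 and the average of P4 and P5, Sox9 and Lgr4 were higher and Ascl2 was lower in those labelled P2, beside 13.3% of all genes called higher and 9.17% called lower. Between these high-Lgr5 libraries the other 6 were not called, and their log2 differences ran from -2.34 for Tnfrsf19 to 0.70 for Znrf3. Leaving out replicate 1 of those labelled P2 ended all 3 calls (adjusted p from 0.0169 to 0.0338, directions unchanged). Without replicate 2 of those labelled P2, Ascl2 was not called, and without replicate 1 of P4 or of P5, Lgr4 was not called, which left 2 calls each time. The first and second comparisons share the P1 and P3 libraries, so their values are given side by side and not compared.

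These log2 differences rest on TMM scaling, whose factors ran from 0.496 to 1.56. With total counts in place of TMM, the median log2 difference of all genes moved by 0.82 for P4 and P5 against P1 and P3, by -0.26 for P2 against P1 and P3, by -1.08 for P2 against P4 and P5, by -0.10 for P5 against P4 and by -0.36 for P3 against P1, and single genes have to be read against that shift. The share of called genes that were called higher then went from 32.2% to 96.8% in the first of these, from 59.2% to 14.3% in the third and from 51.5% to 8.85% in the last. Leaving out genes that take over 1% of a library brought that share in the first to 50.4%, and leaving out mitochondrially encoded genes brought it to 53.5%.

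**Figure D3:**
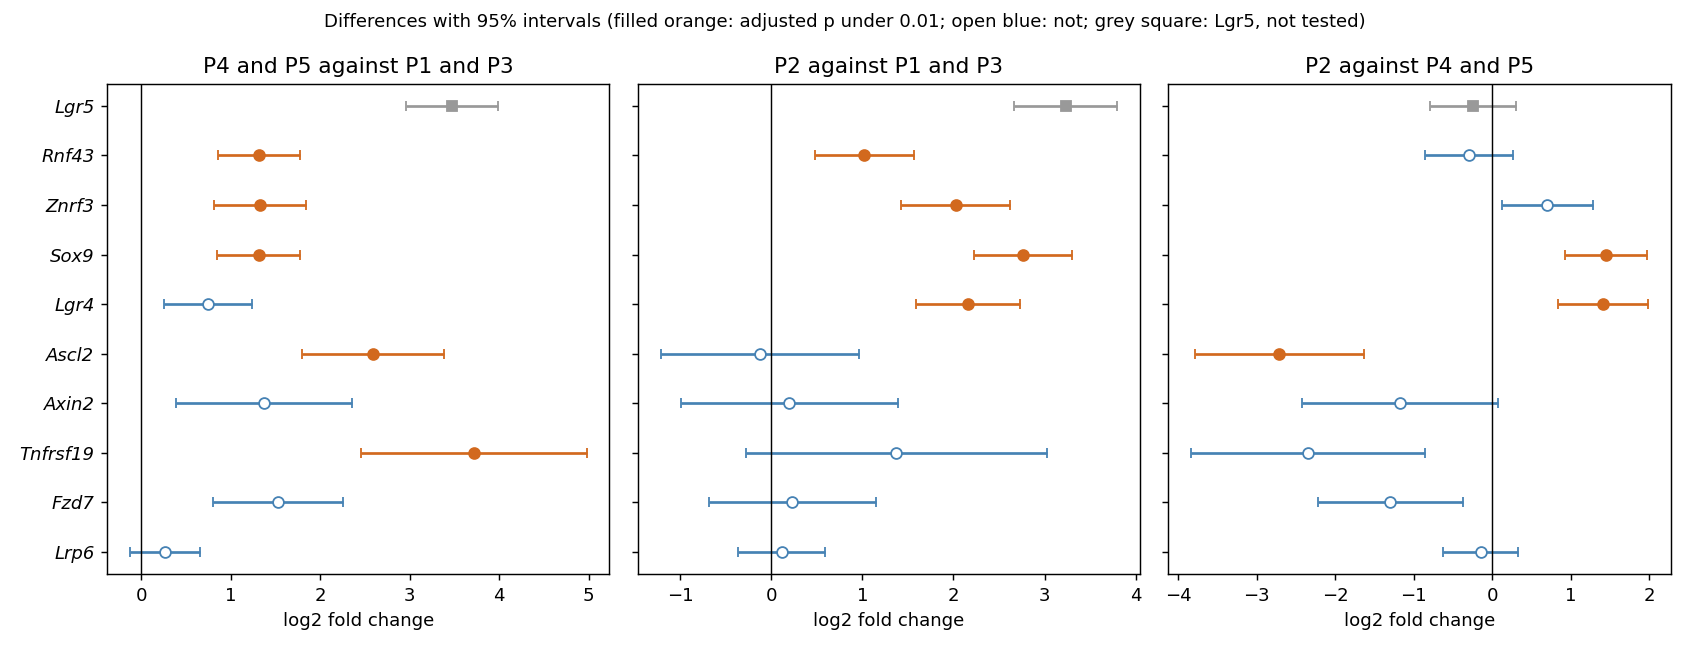
Log2 fold change with its 95% interval for each gene in 3 comparisons, filled orange where the adjusted p was under 0.01, open blue where it was not, and a grey square for Lgr5, which was not tested. Sox9 and Lgr4 lie to the right of 0 and Ascl2 to the left in the comparison of P2 with P4 and P5, while the interval of Rnf43 there spans 0, from -0.85 to 0.26.

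Rnf43, the membrane ligase that removes Frizzled receptors, came closest to the pattern of Lgr5. It had 110 and 127 CPM in P4 and 98.6 and 110.9 in P5. The libraries labelled P2 held 96.3 and 85.2 CPM, against 48.1 and 36.3 in P1 and 32.4 and 60.8 in those labelled P3. All libraries of P4 and P5 were also above those labelled P2, by a small margin, with 98.6 against 96.3 at the border. It was 2.49-fold higher in P4 and P5 than in P1 and P3 (log2 1.32, SE 0.20, adjusted p = 0.00459) and 2.03-fold higher in the libraries labelled P2 than in P1 and P3 (log2 1.02, SE 0.24, adjusted p = 0.00802). The second of these calls was lost with total-count scaling (log2 0.70, adjusted p = 0.191), and against P1 alone (adjusted p = 0.0121) or the libraries labelled P3 alone (adjusted p = 0.0312). It was also lost when any 1 library of P1, P2, P4 or P5 was left out, with adjusted p of up to 0.0595 and 3 of the 4 calls of that comparison then kept, those of Znrf3, Sox9 and Lgr4. Between the libraries labelled P2 and P4 and P5 the log2 difference was -0.30, with a 95% interval from -0.85 to 0.26.

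Znrf3, the second ligase of this kind, had its highest level in the libraries labelled P2, 40.5 and 37.3 CPM. P4 followed with 21.0 and 27.1 CPM and P5 with 19.8 and 27.6, while P1 had 5.76 and 10.0 and the libraries labelled P3 had 11.7 and 11.3. No library of P4 or P5 reached those labelled P2, and none fell to the level of P1 or of those labelled P3. Znrf3 rose 2.51-fold in P4 and P5 over P1 and P3 (log2 1.33, SE 0.23, adjusted p = 0.00582) and 4.08-fold in the libraries labelled P2 (log2 2.03, SE 0.27, adjusted p = 0.000435). Its difference between the libraries labelled P2 and P4 and P5 did not pass the threshold (log2 0.70, 95% interval 0.12 to 1.28, adjusted p = 0.0603) and turned to -0.39 with total counts, where the median of all genes was -1.03.

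Sox9, a transcription factor of stem and Paneth cells, had 149 and 126 CPM in the libraries labelled P2. It had 47.1 and 60.2 CPM in P4, 38.6 and 55.6 in P5, 20.7 and 34.0 in those labelled P3, and 16.3 and 13.1 in P1. The 3 levels did not overlap, although only a narrow gap lay between the lowest P5 library, at 38.6, and the highest labelled P3, at 34.0. Sox9 was 6.79-fold higher in the libraries labelled P2 than in P1 and P3 (log2 2.76, SE 0.24, adjusted p = 6.58e-05), 2.49-fold higher in P4 and P5 (log2 1.31, SE 0.21, adjusted p = 0.00463), and 2.73-fold higher in the libraries labelled P2 than in P4 and P5 (log2 1.45, SE 0.23, adjusted p = 0.00135).

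Lgr4, the R-spondin receptor that unlike Lgr5 is found through much of the epithelium, had 516 and 339 CPM in the libraries labelled P2. In the other libraries it ran from 132.7 to 179.9 CPM in P3, P4 and P5, which overlapped, and it was lowest in P1, with 47.6 and 73.6 CPM. Lgr4 rose 4.46-fold in the libraries labelled P2 over P1 and P3 (log2 2.16, SE 0.25, adjusted p = 0.000261) and 2.65-fold over P4 and P5 (log2 1.41, SE 0.25, adjusted p = 0.00251). The first of these differences was 2.82 on the log2 scale against P1 alone and 1.5 against those labelled P3 alone, both called. In P4 and P5 against P1 and P3 it was not called (log2 0.75, SE 0.22, adjusted p = 0.0295). The log2 difference was 1.41 against P1 alone and 0.09 against the libraries labelled P3 alone, with adjusted p of 0.0034 and 0.885.

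With total counts, the excess of Sox9 and of Lgr4 in the libraries labelled P2 over P4 and P5 fell below the threshold (log2 0.36 and 0.32, adjusted p = 0.449 and 0.483), where the median of all genes was -1.03. The Paneth marker sum, 399239 to 562692 CPM in the libraries labelled P2 and at most 10743 in P4 and P5, moved with both genes, and its part in these differences was not tested.

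Ascl2, Axin2 and Tnfrsf19, all known Wnt targets, made up the second shape, with all 4 libraries of P4 and P5 above all 6 others. Rnf43 met this condition too, so 4 of the 9 genes did, beside 2.08% of all genes tested. Ascl2 had 20.2 and 26.1 CPM in P4 and 25.1 and 28.5 in P5, against 4.24 and 1.34 in P1. The libraries labelled P2 had 4.27 and 3.35 CPM and those labelled P3 had 3.72 and 7.77. The 6 low libraries overlapped one another. It was 6.03-fold higher in P4 and P5 than in P1 and P3 (log2 2.59, SE 0.35, adjusted p = 0.00424) and 6.57-fold lower in the libraries labelled P2 than in P4 and P5 (log2 -2.72, SE 0.48, adjusted p = 0.00224). In the libraries labelled P2 against P1 and P3 its log2 difference was -0.12, with a 95% interval from -1.21 to 0.97. Side by side, the libraries labelled P2 held Lgr5 at 80.5 and 81.2 CPM with Ascl2 at 4.27 and 3.35 CPM, whereas P4 and P5 held both.

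Tnfrsf19, also called Troy, a receptor of the tumour necrosis factor family and a crypt base marker, was the scarcest of the 10 per kilobase of transcript in every population, though with all exons of the gene as the length Znrf3 was lower in P4 (3.05 against 3.28 CPM per kilobase). It had 12.2 and 20.3 CPM in P4 and 9.63 and 15.9 CPM in P5. It had 4.27 and 1.56 CPM in the libraries labelled P2, 0.68 and 1.34 in P1, and 0 and 1.78 in those labelled P3. The 0 is a count of 0, which allows a share of up to 7.78e-05% of that library (3 counts, counting error only). Tnfrsf19 was 13.1-fold higher in P4 and P5 than in P1 and P3 (log2 3.72, SE 0.56, adjusted p = 0.00432). The size of this difference is poorly fixed, because without replicate 2 of those labelled P3, which leaves only the library with 0 counts in that population, the fitted log2 difference was 6.70 (adjusted p = 0.00219). Between the libraries labelled P2 and P4 and P5 it was not called (log2 -2.34, 95% interval -3.83 to -0.85, adjusted p = 0.0211), and it was called with total counts (log2 -3.43, adjusted p = 0.00463, where the median of all genes was -1.03) and with DESeq2 (adjusted p = 0.00308).

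Axin2, the feedback inhibitor of β-catenin that serves as a general readout of Wnt signalling, had 135 and 201 CPM in P4 and 134 and 215.5 in P5. Its replicates lay far apart in P1, at 32.7 and 88.7 CPM, and in the libraries labelled P3, at 28.1 and 114, while those labelled P2 had 84.1 and 68.0. In 4 of the 5 populations replicate 2 was the higher, the libraries labelled P2 being the exception. Axin2 was 2.58-fold higher in P4 and P5 than in P1 and P3 without passing the threshold (log2 1.37, SE 0.44, adjusted p = 0.0405), and it passed with DESeq2 (adjusted p = 0.00862). Its differences in the libraries labelled P2 were log2 0.20 against P1 and P3 (95% interval -0.99 to 1.39) and -1.17 against P4 and P5 (95% interval -2.42 to 0.08). Axin2 shares 209 exon bases, 3.8% of its exons, with a gene on the opposite strand, Gm11670, and reads in them cannot be told apart in counts made without regard to strand.

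The 250 bases before the start sites of Ascl2, Axin2 and Tnfrsf19 are shown so that the letters of these 3 Wnt targets can be compared, as given for the GRCm38.p6 build by RefSeq, 5′ to 3′. The RefSeq table held promoters of 6 of the 10 genes, 8 promoters in all. They were searched on both strands for CTTTGA, the core that TCF factors bind, which reads TCAAAG on the other strand, and capitals mark a match.
Ascl2, chr7:142969265-142969514, minus strand: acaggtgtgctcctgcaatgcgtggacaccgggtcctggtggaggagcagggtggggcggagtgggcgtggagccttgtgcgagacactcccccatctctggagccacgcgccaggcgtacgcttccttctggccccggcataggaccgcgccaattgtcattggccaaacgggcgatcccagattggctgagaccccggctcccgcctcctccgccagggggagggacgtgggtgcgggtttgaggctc
Axin2, chr11:108920099-108920348, plus strand: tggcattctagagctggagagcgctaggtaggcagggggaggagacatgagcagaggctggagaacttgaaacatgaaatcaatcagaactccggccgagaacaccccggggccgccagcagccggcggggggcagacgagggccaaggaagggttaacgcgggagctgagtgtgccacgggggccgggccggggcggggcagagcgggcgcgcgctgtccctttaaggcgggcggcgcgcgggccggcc
Tnfrsf19, chr14:61037988-61038237, minus strand: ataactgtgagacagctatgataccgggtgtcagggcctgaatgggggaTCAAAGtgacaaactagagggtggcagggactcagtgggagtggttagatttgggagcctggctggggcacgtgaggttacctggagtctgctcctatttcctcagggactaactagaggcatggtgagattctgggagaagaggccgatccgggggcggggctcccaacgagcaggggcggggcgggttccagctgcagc
The only match among the 8 promoters was the TCAAAG of Tnfrsf19, 201 bases before the start, and 13.8% of 32851 promoters of the same length held one. A second promoter of Tnfrsf19 and those of Axin2 and Ascl2 held none in this window. A match describes the letters and does not show binding. In the NCBIM37 build to which the reads were mapped, known as mm9, Ascl2 lies at chr7:150152727-150155169, Axin2 at chr11:108781663-108812097 and Tnfrsf19 at chr14:61582671-61665692. There Lgr5 lies at chr10:114887367-115024836, Rnf43 at chr11:87476224-87549041, Znrf3 at chr11:5176327-5344850 and Sox9 at chr11:112643538-112649074. Lgr4 lies at chr2:109757804-109854414, Fzd7 at chr1:59538991-59543791 and Lrp6 at chr6:134396494-134516983, and the counts cover the exons of the whole gene.

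Fzd7, a Frizzled receptor of crypt stem cells, had 19.0 and 34.9 CPM in P4 and 18.0 and 34.5 CPM in P5. The libraries labelled P3 held 20.2 and 16.2 CPM. It had 7.62 and 13.8 CPM in those labelled P2 and 3.90 and 5.52 in P1. The libraries labelled P3 thus reached into the range of P4 and P5, and P1 lay below all others. In P4 and P5 against P1 and P3 Fzd7 missed the threshold narrowly (log2 1.53, SE 0.32, adjusted p = 0.0102), and against P1 alone it was called (log2 2.50, adjusted p = 0.0019). In the libraries labelled P2 its log2 difference was 0.23 against P1 and P3 (95% interval -0.69 to 1.15) and -1.30 against P4 and P5 (adjusted p = 0.0341).

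Lrp6, the Wnt co-receptor, had 119.5 and 126 CPM in P4 and 99.9 and 137 CPM in P5. The libraries labelled P2 held 96.9 and 121 CPM and those labelled P3 180.5 and 125 CPM, each population overlapping the next in order. Only P1, at 63.7 and 68.9 CPM, lay below. The log2 difference of Lrp6 was 0.26 for P4 and P5 against P1 and P3 (95% interval -0.13 to 0.65), 0.12 for the libraries labelled P2 against P1 and P3 (95% interval -0.36 to 0.59) and -0.15 for those labelled P2 against P4 and P5 (95% interval -0.63 to 0.33). The first of these was 0.86 against P1 alone (adjusted p = 0.0106) and -0.34 against the libraries labelled P3 alone (adjusted p = 0.427), and with total counts it was called (log2 1.14, adjusted p = 0.00377), where the median of all genes moved by 0.82.

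P4 and P5 differ in the level of the EF1a-driven reporter at a like OSCAR ratio. None of the 9 genes was called between them, and their log2 differences (P5 minus P4) ran from -0.35 for Tnfrsf19 to 0.21 for Ascl2. The 95% intervals allow differences of up to 1.41 log2 units for Axin2 and down to -1.73 for Tnfrsf19, and the tightest, for Lrp6, ran from -0.60 to 0.49. Over all genes 0% were called higher and 0% lower by edgeR, with 350 genes at an unadjusted p under 0.05. DESeq2 called 29, and edgeR without the filter on low counts called 194.

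By the labels, P3 against P1 is the same contrast at OSCARlow. Since the label P2 goes against the study's account of that gate, whether the libraries labelled P3 hold OSCARlow, EF1ahigh cells could not be settled here, and the values compare those libraries with P1 only as labelled. The log2 differences ran from 0.17 for Rnf43 to 1.93 for Fzd7 over the 9 genes, and the signs of the smallest rested on single libraries. Rnf43 and Tnfrsf19 turned negative with total counts, at -0.09 and -0.07, where the median of all genes was -0.39. Without replicate 2 of those labelled P3, Rnf43 (log2 -0.35), Axin2 (log2 -1.08) and Tnfrsf19 turned negative, and without replicate 1 of P1, Axin2 (log2 -0.30) and Tnfrsf19 (log2 -0.22) did. Only Lrp6 was called, 2.30-fold higher in the libraries labelled P3 (log2 1.20, SE 0.25, adjusted p = 0.00711), beside 8.01% of all genes called higher and 7.54% called lower. That call was lost when any 1 library of P1, P4 or P5 or replicate 1 of those labelled P3 was left out (adjusted p from 0.0105 to 0.0508) and with total counts (log2 0.74, adjusted p = 0.108). Lgr4 (log2 1.32, adjusted p = 0.012) and Fzd7 (log2 1.93, adjusted p = 0.0155) lay just outside the threshold, and both passed it with DESeq2, at adjusted p of 0.00194 and 0.00255. Lgr5 had a log2 difference of -0.47, the opposite sign. The mitochondrial share, 59.2% and 36.1% in the libraries labelled P3 and 1.17% to 1.78% in P1, moved with this contrast, and its part in these values was not tested. A direct test of whether the P5 to P4 difference departed from the difference between the libraries labelled P3 and P1 called none of the 9 genes.

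Levels can be compared between genes only per length of transcript, here the longest coding transcript of each gene. On the scale of CPM per kilobase, Axin2 was the most abundant of the 10 in P5, at 41.0 ± 13.5 (SD, n = 2), and in P4, at 39.4 ± 10.96, followed by Lgr4, at 32.3 ± 4.34 and 31.3 ± 5.98, which does not differ beyond this spread. Rnf43 had 24.3 ± 2.02 and 27.5 ± 2.87 in P5 and P4, and Lgr5 18.6 ± 4.77 and 22.2 ± 3.03. In the libraries labelled P2 the order changed, with Lgr4 first at 84.4 ± 24.8, Sox9 next at 33.3 ± 3.85 and Rnf43 after it at 21.1 ± 1.83. Among the ligases, Znrf3 stayed below Rnf43 in every population, at 6.16 ± 0.369 in the libraries labelled P2 and 3.81 ± 0.681 in P4. Among the R-spondin receptors, Lgr4 exceeded Lgr5 in every population, from 11.98 ± 3.63 against 2.14 ± 0.120 in P1 to 31.3 ± 5.98 against 22.2 ± 3.03 in P4. Lengths summed over all annotated exons would lower Lgr5 to 10.2 in P4, where Lgr4 would have 26.9.

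**Figure D4:**
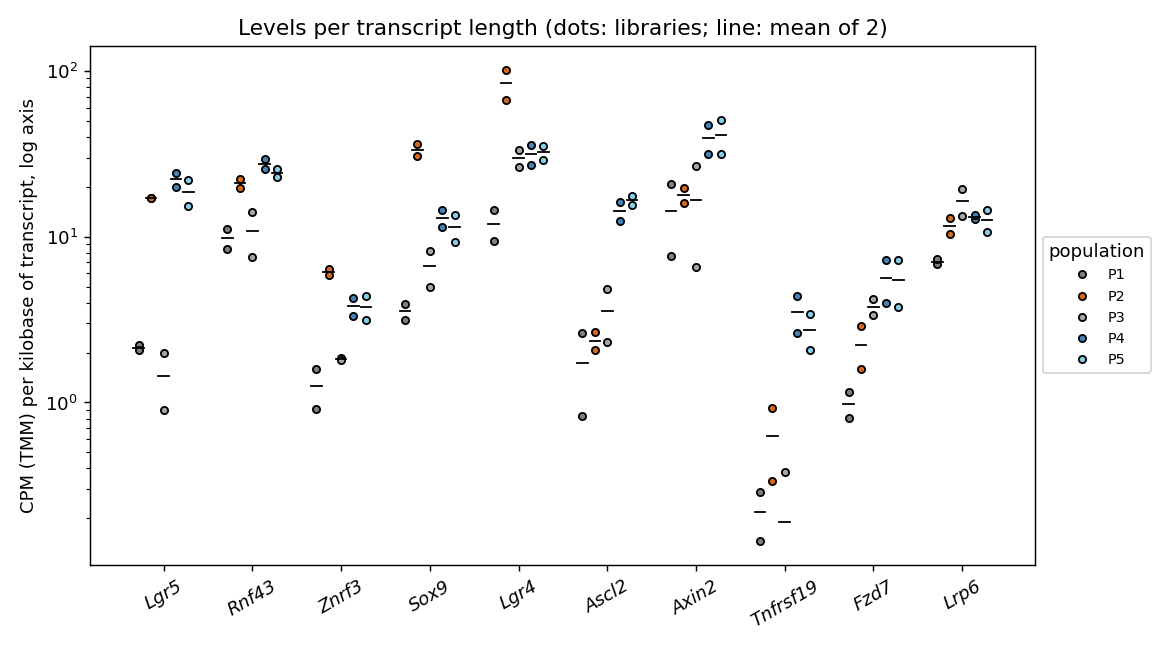
CPM per kilobase of the longest coding transcript (log axis) for each gene and population, with a dot for each library and a line at the mean of 2. One library labelled P3, with 0 counts of Tnfrsf19, has no dot, and Lgr4 lies above Lgr5 in every population, least so in P4, at 31.3 against 22.2.

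Across the 10 libraries, which share populations and depth, the Pearson correlation of log2 CPM with that of Lgr5 was 0.956 for Rnf43, 0.869 for Tnfrsf19, 0.838 for Znrf3, 0.772 for Sox9, 0.717 for Axin2, 0.644 for Ascl2, 0.570 for Lgr4, 0.454 for Fzd7 and 0.123 for Lrp6. Rnf43 ranked 8 among the 13705 other genes by this measure. Among the 5 genes most like Lgr5 were Gm17435 (0.983), Fam115a (0.978), Rassf10 (0.963) and 4930473A06Rik (0.961), of which Gm17435 and Rassf10 did not exceed 2.33 CPM in any library and are sparse counts. Fam115a, the most abundant of these 4, had 1.06 to 3.18 CPM in P1 and in the libraries labelled P3 and 9.15 to 17.3 CPM in the other 6. Among the 9 genes themselves, Sox9, Znrf3 and Lgr4 correlated with one another at 0.90 to 0.93, Axin2 with Tnfrsf19 at 0.923 and Fzd7 with Lrp6 at 0.836. Tnfrsf19 also correlated with Rnf43 at 0.91 and with Ascl2 at 0.82, while Rnf43 had 0.766 with Znrf3 and 0.748 with Sox9. These are descriptions over 10 libraries of 5 populations, without a test.

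The rest of the pathway was followed on a list of 95 further genes, of which 62 passed the filter on low counts, 32 did not and 1, Amer1, was not found by that name in the count files. Those that did not pass include most Wnt ligands and all 4 R-spondins, with at most 2 counts of any R-spondin over the 10 libraries. In P4 and P5 against P1 and P3, 5 of the 62 rose and 1 fell, beside 3.2% of all genes called higher and 6.76% called lower, with a median log2 difference of 0.24 beside 0.04 over all genes. Leaving out 1 library of P1, P4 or P5 leaves 1 in that population, and almost none of all genes tested was called then. These fits therefore cannot show whether the 6 calls rest on single libraries. Against those labelled P3 alone only 4 of all genes tested were called. Without both libraries labelled P3, 14 of the 62 were called higher and 10 lower, with a median of 0.08. Over all genes 5368 were called in that setting, so the rise in calls was not particular to this list. The Eph receptors Ephb3 (log2 2.19, SE 0.29, adjusted p = 0.00424) and Ephb2 (log2 1.29, SE 0.18, adjusted p = 0.00424), Wnt targets that position cells along the crypt, and the receptors Fzd2 (log2 3.59), Ptk7 (log2 1.53) and Fzd6 (log2 1.28) rose. Gsk3a, a kinase of the complex that degrades β-catenin, fell (log2 -0.73), and its sign turned with total counts. With that scaling 19 of the 62 were called higher and 0 lower, beside 2961 higher and 97 lower over all genes. Ephb3 had 33.2 to 47.7 CPM in the P4 and P5 libraries and 5.59 to 13.9 in P1 and those labelled P3. Ephb2 had 99.9 to 136 CPM in P4 and P5 and 94.2 and 110 in those labelled P3. It thus overlapped them and separated from P1 only, at 17.5 and 26.8. The same held for Fzd6 and Ptk7. Fzd6 had 9.97 to 13.6 CPM in P4 and P5, 13.3 and 9.55 in those labelled P3 and at most 2.68 in P1. Ptk7 had 9.63 to 15.6 CPM in P4 and P5, 11.15 and 9.77 in those labelled P3 and at most 2.51 in P1. Fzd2 was scarce, with 3.07 to 6.67 CPM in P4 and P5 and at most 0.84 in P1 and those labelled P3.

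Against P1 and P3, 20 of the 62 rose and 4 fell in the libraries labelled P2, beside 15.3% of all genes called higher and 12.3% called lower, with a median log2 difference of 0.91 beside -0.03 over all genes. With total counts 13 rose and 3 fell, and 16 of the 24 calls were kept. Among the ligands, Wnt3, the Wnt that Paneth cells are known to make, had 202 and 207 CPM in the libraries labelled P2 and at most 25.6 in the other 8 (log2 5.40, SE 0.62, adjusted p = 0.000232). Wnt9b, the other ligand called, was scarce, with 1.52 and 3.57 CPM against at most 1.39 elsewhere. Porcn, the acyltransferase that Wnt ligands need for secretion, rose with it, at 19.5 and 11.2 CPM against at most 4.18 elsewhere (log2 5.11, SE 0.68, adjusted p = 0.000451). Of the receptors, Fzd9, Ror2, Fzd6 and Ptk7 rose and Fzd5 fell, with Fzd9 at 91.1 and 80.1 CPM in the libraries labelled P2 against at most 10.9 elsewhere, and Fzd5 at 40.9 and 52.9 CPM against 83.8 to 512 elsewhere. The secreted inhibitors Wif1 and Dkk3 and the cytoplasmic inhibitor Nkd1 rose, Wif1 to 7.62 and 14.7 CPM from at most 0.33 elsewhere, Dkk3 to 20.1 and 27.7 from at most 2.84, and Nkd1 to 72.2 and 64.2 from at most 7.19. The kinase Csnk1e rose as well (log2 1.98), and Gsk3a fell (log2 -0.74). Among nuclear factors, the β-catenin partner Bcl9 (log2 2.27), Tle2 (log2 4.71), Bcl9l (log2 1.30), Tcf7l2 (log2 1.37) and Tcf7 (log2 2.09) rose, and Tle4 fell (log2 -1.97). Of the other targets, Ephb3 (log2 4.39), Prox1 (log2 3.75), Mmp7 (log2 5.10), which is also a Paneth cell marker, and Ets2 (log2 1.42) rose and Sp5 fell (log2 -2.01). These genes moved with the Paneth, goblet, enteroendocrine and tuft marker sums, and the part of those cells in the result was not tested.

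Between the libraries labelled P2 and P4 and P5, 14 of the 62 were higher and 3 lower, beside 13.3% and 9.17% of all genes (9 and 9 with total counts, with 12 of the 17 calls kept). Wnt3 (log2 6.10, SE 0.59) and Fzd9 (log2 6.61, SE 0.78) were again among the higher, as were Porcn (log2 2.45), Nkd1 (log2 4.92), Bcl9 (log2 1.64), Tle2 (log2 4.17), Tcf7l2 (log2 1.20), Mmp7 (log2 6.38), Prox1 (log2 3.0) and Ephb3 (log2 2.20). Wif1, Dkk3 and Notum, a secreted enzyme that inactivates Wnt ligands, were higher too, Notum with 4.27 and 2.90 CPM against at most 0.23 in P4 and P5. The lower ones were Fzd5 (log2 -2.40), Tle4 (log2 -1.39) and Ccnd1 (log2 -2.98), the cyclin of cell-cycle entry, which had 9.45 and 14.7 CPM in the libraries labelled P2 and 73.7 to 122 in P4 and P5. Of the 62, 6 rose in the libraries labelled P3 over P1, and 4 fell (2 and 5 with total counts), shares close to the 8.01% and 7.54% of all genes called. Without replicate 1 of P1, 0 of all genes were called in this comparison, and the mitochondrial share of 59.2% and 36.1% in those labelled P3 moved with it. Of these, the receptors Lrp5 (log2 1.77), Fzd5 (log2 2.21), Fzd6 (log2 2.46) and Ptk7 (log2 2.41) rose, as did Ephb2 (log2 2.20) and Kremen1 (log2 1.62), while Gsk3a (log2 -1.18), Gsk3b (log2 -1.20) and Ctnnb1, which encodes β-catenin (log2 -1.31), fell with Sp5 (log2 -2.74). None of the 62 was called between P5 and P4.

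**Figure D5:**
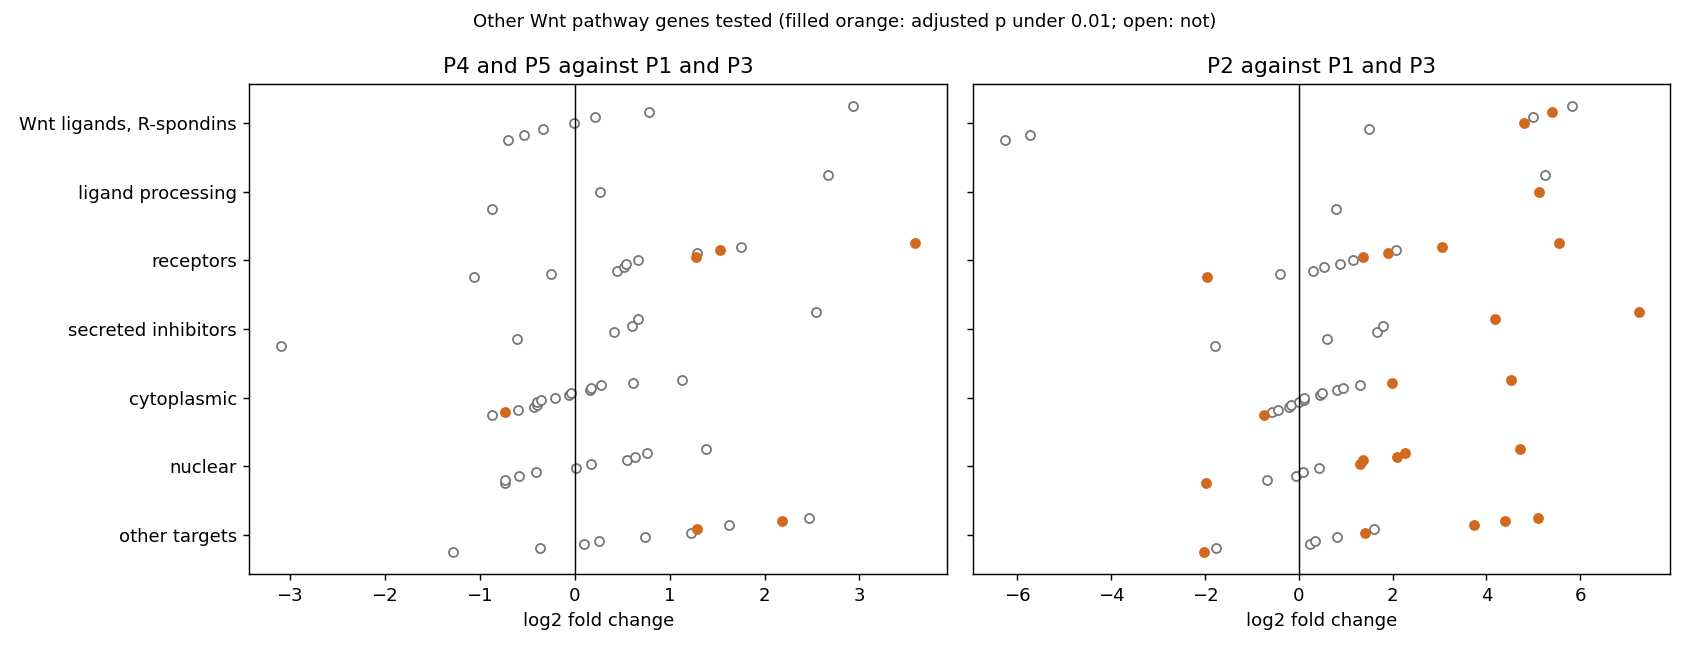
Log2 fold change of the 62 other Wnt pathway genes tested, by role, in 2 comparisons that share their reference libraries, filled orange where the adjusted p was under 0.01. In P4 and P5 against P1 and P3, 5 are called higher and 1 lower, and in P2 against P1 and P3, 20 are called higher and 4 lower.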

How the data were processed

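Poly-A RNA of 10 libraries, 2 of each sorted crypt population, was analysed. The authors deposited raw counts of reads per gene, made per the study's methods and notes with FastQC 0.11.5, TopHat2 2.1.0 with Bowtie 1 on mm9 and HTSeq 0.11.2 on exons, ignoring strand and leaving out reads with several alignments or several genes. Multi-aligned reads came to 11.6% to 15.0% in P1, P4 and P5, 28.2% to 29.3% in the libraries labelled P2 and 33.1% to 41.7% in those labelled P3. A row without a gene name (at most 0.000596% of counts) and 206 rRNA names were removed, and 33643 of 35006 names were found in GENCODE vM1.

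Groups follow the deposited labels. Genes passing filterByExpr were scaled with TMM, and the population means were fitted with edgeR 4.0.16 in R 4.3.3, with limma 3.58.1 and DESeq2 1.42.0 as the alternative test. Standard errors were derived from the F statistics. CPM are TMM-scaled, and log2 CPM for correlations used a prior count of 2. A share of 3 counts was taken as the detection floor. The procedure was run on simulated counts for P4 and P5 against P1 and P3 only. These counts did not copy the differences between libraries in mitochondrial share, so the run does not bear on them. Replicate numbers were not treated as pairs.

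The genes followed, the Wnt list and the marker lists were chosen with earlier results of these data known. Named were the 10 genes, up to 4 genes per Wnt list and comparison with the smallest adjusted p among those called, and the 5 genes most correlated with Lgr5, of which 1 is not reported here. Ptk7, Tcf7l2, Tcf7 and Sp5 in the comparison of P2 with P1 and P3 were named after their values were seen. Of the listed genes, 2 names were not in the files. Alternatives covered scaling, filter, test, threshold, rRNA and mitochondrial genes, the replicate block, the reference population and each library left out. Python 3.11.15, pandas 2.3.3, numpy 2.4.6 and matplotlib 3.10.9 were used.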

Additional observations from a re-analysis of the deposited data

How the results depend on the processing

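Of 972 values of the 9 genes under an alternative, 823 kept their direction and their side of the threshold, 47 were newly called and 63 were no longer called. Another 39 differences that were not called changed sign, and no called difference of these 9 genes did. In P4 and P5 against P1 and P3, 5 of the 9 genes were called, and 9 with total counts, 8 without the filter on low counts, 8 with DESeq2, 8 at an adjusted p under 0.05, 0 against P3 alone, 8 without both libraries labelled P3 (added after seeing the data) and 0 to 6 with 1 library left out. In P2 against P1 and P3, the 4 calls ranged from 3 to 4 with 1 library left out. In P2 against P4 and P5, the 3 calls became 6 without the filter, 5 at 0.05 and 0 to 4 with 1 library left out. Between P5 and P4 the count was 0 under each alternative. In P3 against P1, the 1 call became 0 with total counts, 3 without the filter, 3 with DESeq2, 3 with the replicate block, 4 at 0.05, 2 without both libraries labelled P2 and 0 to 1 with 1 library left out. The 3 genes that followed Lgr5 became 7 without both libraries labelled P3 and 3 to 5 with 1 library left out, where fewer libraries had to be separated. Without both labelled P2 the condition asked only that P4 and P5 lie above P1 and P3, and 6 genes met it. The shares of all genes that met these easier conditions were not taken, so these counts have no background beside them. For the counts of calls the cause was not tested.

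Libraries with the same replicate number deviated from their population means with correlations from -0.0598 to 0.554 (median 0.255, 10 pairs of populations), so the numbers were not taken as pairing, and the replicate block moved no other count of these genes by over 1.5 times. It added calls of Axin2 (log2 1.5, adjusted p = 0.00817) and Fzd7 (log2 1.48, adjusted p = 0.00402) in P4 and P5 against P1 and P3, of Fzd7 in P2 against P4 and P5 (adjusted p = 0.00938), and of Lgr4 and Fzd7 in P3 against P1 (adjusted p = 0.00901 and 0.00466), and ended none. Over all genes, P4 and P5 against P1 and P3 called 1365 genes, and 3058 with total counts, 3692 without the filter, 3176 with DESeq2, 4304 at 0.05, 4256 against P1 alone, 4 against P3 alone, 5368 without both libraries labelled P3 and 0 to 2682 with 1 library left out. For P2 against P1 and P3 the 3782 became 6077 at 0.05 and 1574 to 4276 with 1 library left out. For P2 against P4 and P5 the 3082 became 5041 at 0.05, 1962 against P4 alone and 1227 to 3939 with 1 library left out. Between P5 and P4, 0 became 194 without the filter, 29 with DESeq2 and 1 with the replicate block. For P3 against P1 the 2132 became 1164 with total counts, 4005 without the filter, 3559 with DESeq2, 4652 at 0.05 and 0 to 2126 with 1 library left out. With 2 libraries a population and 5 residual degrees of freedom, and with counts of 0 to 8 for Tnfrsf19 in P1 and P3, small differences were not detectable.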
